A study of Mus musculus with 25 samples.

Results

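The mitochondrial chromosome of the mouse carries 37 genes, and all of them were taken here by their symbols, which start with mt-. They are 13 mRNAs, 2 rRNAs and 22 tRNAs of 54752 genes in the deposited count tables. Of the mRNAs, 7 encode subunits of complex I, 1 of complex III, 3 of complex IV and 2 of ATP synthase. RNA was sequenced from epididymal (eWAT) and inguinal (iWAT) white adipose tissue of male C57BL/6N mice, as 25 libraries in 6 groups. In eWAT these are 4 libraries of wild type (WT) mice on a normal diet (ND), 5 of WT mice on a high-fat diet (HFD) and 5 of HFD-fed Acod1-/- mice. In iWAT the same groups hold 3, 5 and 3 libraries. The HFD gave 60% of calories as fat from 5 weeks of age, and the labels give 16 weeks of it, except for 17 and 18 weeks for replicates 2 and 3 of iWAT Acod1-/- mice. The treatment text of those 2 libraries gives 16 weeks as well, so whether the feeding or the label differed is not known. Acod1 encodes the enzyme that makes itaconate, and the mutant is a whole-body deletion bred from heterozygous parents, so every cell type of the fat lacks the gene. None of the 25 libraries comes from ND-fed Acod1-/- mice, so the genotypes could be compared on HFD only.

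Mitochondrial DNA is a compact circle that is transcribed from both strands into long precursors. Most tRNAs lie between the mRNAs and rRNAs, and cutting them out frees the other transcripts. The mRNAs all encode core subunits of the respiratory chain or ATP synthase, which are assembled with many subunits made from nuclear genes, and the rRNAs build the mitochondrial ribosome that translates them. In white adipocytes mitochondria oxidise fuel and supply precursors for lipid synthesis, and brown adipocytes hold far more of them.

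The libraries had 31405063 to 52335623 reads counted on genes, and 1540584 to 5008077 of them fell on the mitochondrial genes. Acod1 itself had 0 to 9 counts per library, so it does not check the genotype. Adipocyte markers had a summed level of 20748 to 45730 CPM, counts scaled to an equal library total, in every library. Brown adipocyte markers summed to 232 to 1422 CPM in iWAT of ND-fed mice, 84.9 to 150.1 CPM in iWAT of HFD-fed WT mice, 160.4 to 344 CPM in iWAT of Acod1-/- mice and 13.4 to 93.4 CPM in eWAT. Macrophage markers summed to 1032 to 3889 CPM in eWAT of HFD-fed WT mice, against 369.8 to 770.0 CPM in ND-fed and 249 to 1144 CPM in Acod1-/- mice. In iWAT they summed to 381 to 968 CPM in HFD-fed WT, 396 to 538 CPM in ND-fed and 255 to 311 CPM in Acod1-/- mice. Lymph node markers reached 425 to 783 CPM in all 3 iWAT libraries of ND-fed mice and at most 40.3 CPM elsewhere. Skeletal muscle markers reached 9309 CPM in replicate 1 of that group and at most 420.5 CPM elsewhere, and epididymis markers reached 8651 CPM in replicate 2 of the ND-fed eWAT group and 1056 CPM in replicate 5 of the eWAT Acod1-/- group. Red blood cell markers summed to 251 to 1951 CPM. Fewer cells of a type and less RNA per cell cannot be told apart in such tissue. By the numbers in the file headers the libraries form 2 series, and what these numbers stand for is not stated. Series 2 consists of all ND libraries together with replicate 5 of each HFD-fed WT group, replicate 5 of eWAT Acod1-/- mice and replicate 3 of iWAT Acod1-/- mice, and series 1 of the rest.

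Levels of the 13 mRNAs per length fell into a high and a low set. As FPKM (reads per kilobase of cDNA, scaled by the reads counted on genes, as deposited) the median over the 25 libraries was 15892 for mt-Co1, the catalytic core of complex IV, and 11015 for mt-Cytb, the only mitochondrially encoded subunit of complex III. It was 8774 for mt-Nd1, 7207 for mt-Nd2, 4310 for mt-Nd4 and 3832 for mt-Nd5, which all encode membrane subunits of complex I. The complex I mRNA mt-Nd6, which alone among the mRNAs lies on the minus strand of the annotation, had a median of 595 FPKM. The other 6 mRNAs were at a median of 62.9 (mt-Co2), 41.8 (mt-Co3), 40.5 (mt-Atp6), 14.4 (mt-Nd3), 12.6 (mt-Nd4l) and 6.84 FPKM (mt-Atp8), and together took 0.138% to 0.312% of mitochondrial counts. These 6 genes are neighbours on the chromosome, between mt-Co1 and mt-Nd4. The annotated ends of mt-Atp8 and mt-Atp6, of mt-Nd4l and mt-Nd4, and of mt-Nd5 and mt-Nd6 overlap, so reads there are uncertain.

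The stretch from mt-Co1 to mt-Nd4 has near-identical copies in the nuclear genome. In GRCm38, 7 annotated pseudogenes lie in 1 block of 4663 bases on the minus strand of chromosome 1 (chr1:24611535-24616197). Each run of 50 bases of a member was looked up in the annotated nuclear transcripts. It was found there unchanged for 100% of mt-Co2, 99.5% of mt-Atp6, 99.9% of mt-Co3, 97.99% of mt-Nd3 and 98.8% of mt-Nd4l, against 62.2% of mt-Nd4, 51.1% of mt-Co1 and at most 8.19% of any other mRNA. None of the runs of mt-Atp8 was found in an annotated transcript, but its copy would lie in the 233 bases without annotation between the copies of mt-Co2 and mt-Atp6. The files hold uniquely aligned reads, and the copies themselves were counted: Gm28661, the copy of mt-Co2, had a median count of 6253 against 1750 for mt-Co2. To show how little separates the transcripts, the first 100 bases of mt-Nd3 (M:9459-9558, plus strand, GRCm38) and the matching bases of its copy Gm28438 (chr1:24613020-24613119, minus strand) are given, with the one base that differs in capitals.
mt-Nd3: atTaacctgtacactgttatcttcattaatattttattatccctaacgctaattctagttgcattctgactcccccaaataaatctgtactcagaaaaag
Gm28438: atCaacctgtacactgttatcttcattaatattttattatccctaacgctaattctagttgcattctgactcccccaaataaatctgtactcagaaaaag
For these 6 mRNAs the counts hold only reads that could be placed uniquely, and the part of the copies in the low levels was not tested.

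**Figure D1:**
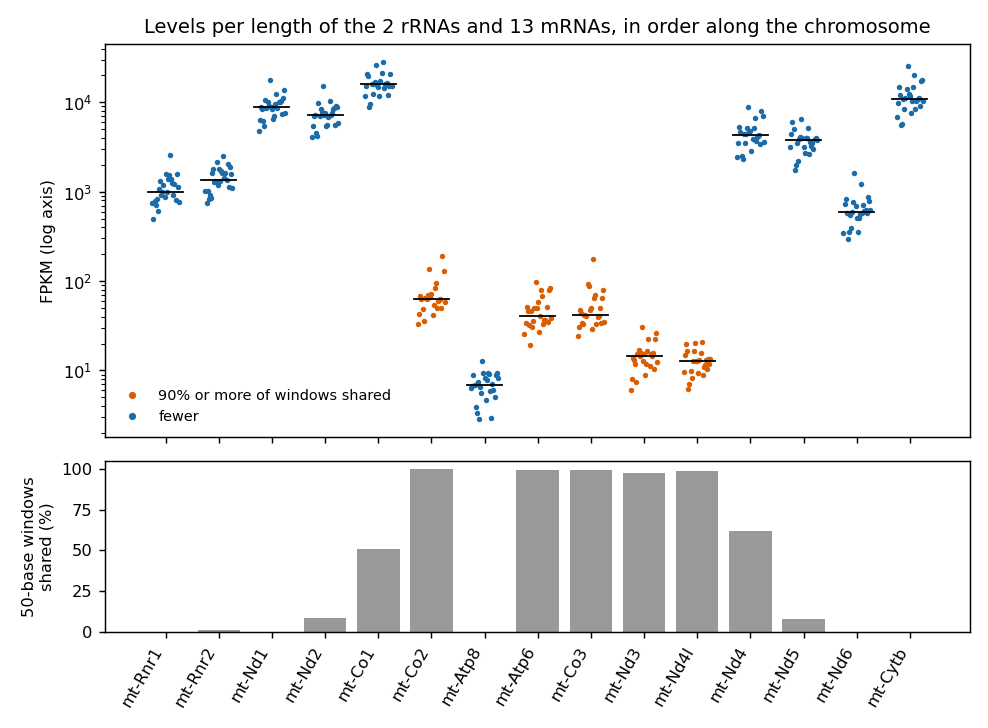
Upper panel, FPKM on a log axis of the 2 rRNAs and 13 mRNAs in chromosome order, 1 point per library and a line at the median of 25. Lower panel, the percentage of 50-base runs of each gene that also occur in an annotated nuclear transcript. The 5 genes whose runs are nearly all shared, and mt-Atp8 between them, have medians of 6.84 to 62.9 FPKM, while all other genes have medians of 595 FPKM or more.

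The share of reads on the 37 genes ranged from 3.96% to 13.2% of the reads counted on genes. In eWAT it was 4.67%, 6.14%, 8.61% and 7.76% in ND-fed WT mice, and 3.96%, 3.999%, 7.45%, 5.78% and 7.21% in HFD-fed WT mice. In eWAT of Acod1-/- mice it was 7.68%, 13.2%, 7.12%, 7.003% and 5.09%. Replicate 2 was the highest library of the series, and the other 4 Acod1-/- libraries lay within the range of ND-fed and within or just above that of HFD-fed WT mice. In iWAT the share was 6.83%, 8.50% and 11.6% in ND-fed WT mice, 6.13%, 7.08%, 7.07%, 7.399% and 5.52% in HFD-fed WT mice, and 8.65%, 9.56% and 6.35% in Acod1-/- mice. The groups overlapped in every comparison.

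With HFD the mean share of WT mice was 1.12 percentage points lower in eWAT and 2.33 lower in iWAT (two-sided exact permutation tests, p = 0.357 and p = 0.0714). The eWAT value moved to -0.514 points without replicate 3 and -1.83 without replicate 1 of the ND group, and to -0.689 and -0.699 without replicates 1 and 2 of the HFD group. The iWAT value moved to -1.03 points without replicate 3 of the ND group, which has the highest share there, and was -3.40 without replicate 1. In HFD-fed mice it was 2.34 points higher without Acod1 in eWAT and 1.55 higher in iWAT (exact permutation, p = 0.167 and p = 0.125). The eWAT Acod1-/- mean was 8.02% ± 3.06 (SD, n = 5) with replicate 2 and 6.72% ± 1.13 (SD, n = 4) without it, and the difference from HFD-fed WT mice became 1.05 points. In iWAT the difference was 0.863 points without replicate 2 and 2.46 without replicate 3 of the Acod1-/- group. Replicate 2 of eWAT Acod1-/- mice had 249 CPM of macrophage markers, the lowest sum of all, and 93.4 CPM of brown adipocyte markers, the highest in eWAT. The part of these in its mitochondrial share was not tested. Between depots the mean in eWAT was 2.17 points below that in iWAT on ND, 0.961 below on HFD and 0.165 below in Acod1-/- mice (exact permutation, p = 0.286, p = 0.302 and p = 0.964). On ND it was -0.869 points without replicate 3 of iWAT and -3.24 without replicate 1, and on HFD it was -0.531 and -0.541 without replicates 1 and 2 of eWAT. In Acod1-/- mice it ranged from -1.46 to 0.568 points with 1 library left out. After Benjamini-Hochberg adjustment over the 15 tests of shares the lowest adjusted p of these exact permutation tests was 0.464, and none of the 15 had an unadjusted p under 0.05. Adding the counts of 10 annotated nuclear copies raises the shares by 0.0307 to 0.138 points.

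**Figure D2:**
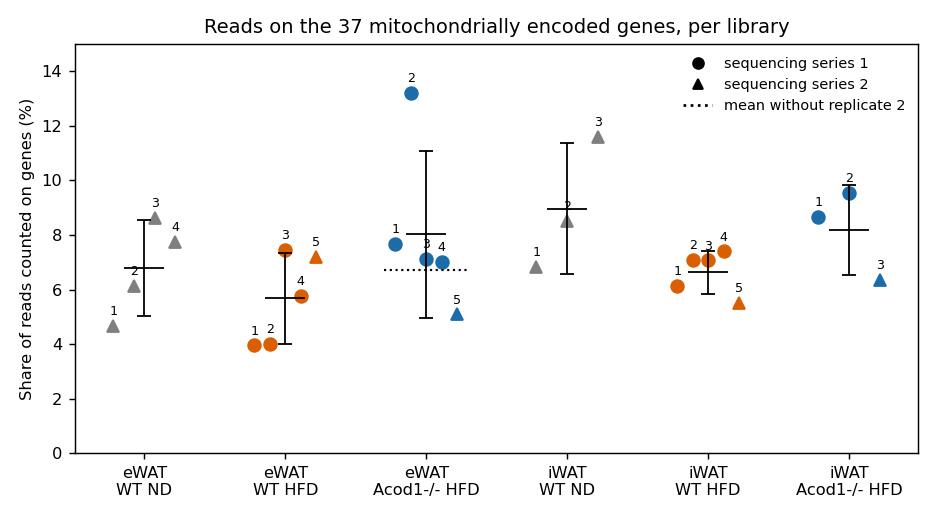
Share of reads counted on genes that fell on the 37 mitochondrial genes, in percent, by group, with 1 numbered point per library. Circles are series 1 and triangles series 2, by the numbers in the file headers. Bars are the mean and SD of a group. The eWAT Acod1-/- mean moves from 8.02% to 6.72% (dotted line) without replicate 2, which stands at 13.2%.

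Within the mitochondrial reads, several mRNAs separated the diets. These percentages of mitochondrial counts are a description with no test, since they were looked at after the values were known. They are parts of the same total, so a smaller part for a gene as abundant as mt-Co1 goes with larger parts for others. The genes are therefore not separate results. In eWAT mt-Nd1 made up 9.83%, 9.77%, 9.75% and 10.47% of mitochondrial counts in ND-fed WT mice, and 14.8%, 13.01%, 13.7%, 14.4% and 13.2% in HFD-fed WT mice. In iWAT the values were 9.96%, 10.8% and 10.2% against 13.6%, 13.8%, 13.6%, 13.3% and 12.9%. Every HFD library was above every ND library of its depot.

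The same was seen for mt-Nd2, the complex I mRNA that follows mt-Nd1 on the chromosome. It made up 8.38% to 9.75% on ND and 11.001% to 13.6% on HFD in eWAT, and 8.42% to 9.31% against 10.49% to 12.2% in iWAT. The opposite held for mt-Co1. In eWAT it made up 38.92%, 38.4%, 37.6% and 38.96% of mitochondrial counts on ND and 34.3%, 37.2%, 33.5%, 33.5% and 34.1% on HFD. In iWAT it made up 38.91%, 38.8% and 37.8% on ND and 36.0%, 35.1%, 35.3%, 34.1% and 34.1% on HFD. All HFD libraries of WT mice lay below all ND libraries of their depot.

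For mt-Nd5, which lies towards the far end of the heavy-strand transcript, the diets separated in eWAT and not in iWAT, and the difference between depots was not tested on this scale. In eWAT its percentage of mitochondrial counts was 12.5%, 13.1%, 12.7% and 11.9% on ND and 8.01%, 9.06%, 8.64%, 6.88% and 9.85% on HFD, with no overlap. In iWAT it was 10.7%, 8.47% and 8.11% against 7.89%, 9.21%, 8.38%, 8.63% and 9.93%, and the groups overlapped. Among the 6 mRNAs with few reads, mt-Co2 and mt-Nd3 were higher and mt-Nd4l lower on HFD in eWAT without overlap.

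Diet nearly coincides with series, so the only comparison of diets within a series is replicate 5 of HFD-fed WT mice against the ND libraries. In that comparison the percentage on mt-Nd1 was 3.28 points higher in eWAT and 2.57 higher in iWAT, and that on mt-Nd2 was 3.13 and 1.77 points higher. For mt-Co1 the difference was -4.42 points in eWAT and -4.43 in iWAT, and for mt-Nd5 it was -2.68 points in eWAT. These are the values of 1 HFD library per depot. Reads on no feature were 8.63% to 10.9% of reads in ND and 6.41% to 9.97% in HFD-fed WT libraries of eWAT, and 10.51% to 11.2% against 6.96% to 9.78% in iWAT. Their part in the makeup was not tested.

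Between genotypes mt-Cytb took a larger part in most Acod1-/- libraries. In eWAT of HFD-fed mice mt-Cytb made up 16.1%, 16.3%, 16.9%, 16.6% and 17.6% of mitochondrial counts in WT and 20.8%, 22.2%, 20.03%, 19.4% and 17.0% in Acod1-/- libraries. In iWAT it made up 15.5%, 16.9%, 17.4%, 17.3% and 18.7% in WT and 22.6%, 21.1% and 18.6% in Acod1-/- libraries. The groups overlapped only through replicate 5 of eWAT and replicate 3 of iWAT Acod1-/- mice, the libraries of series 2, and within series 1 the means differed by 4.13 points in eWAT and 5.08 in iWAT without overlap. For mt-Nd1 the eWAT percentages of Acod1-/- mice, 11.2% to 12.9996%, lay below those of HFD-fed WT mice, 13.01% to 14.8%, though the nearest values all but touch. In iWAT they overlapped, with 11.4% to 13.8% in Acod1-/- and 12.9% to 13.8% in WT libraries. For mt-Co2 in iWAT, Acod1-/- libraries were at 0.0622% to 0.1496% and WT libraries at 0.0555% to 0.0612%. In eWAT they overlapped, with 0.056% to 0.0711% in Acod1-/- and 0.0586% to 0.0846% in WT libraries. For mt-Nd4 the percentage in eWAT was 9.34%, 9.22%, 9.12% and 9.45% in Acod1-/- replicates 1 to 4 and 7.67% in replicate 5, against 7.94% to 8.65% in WT mice.

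**Figure D3:**
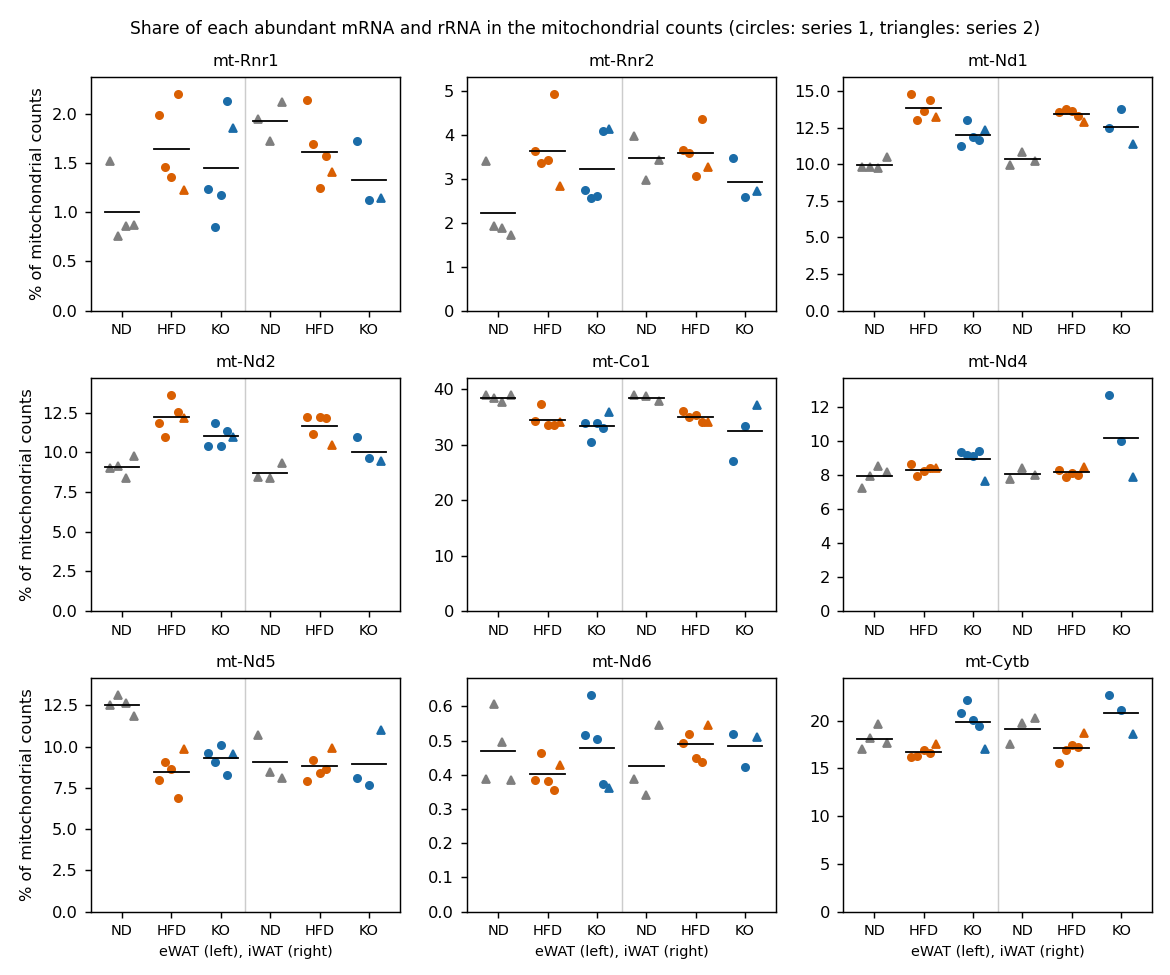
Percentage of mitochondrial counts on each of the 2 rRNAs and the 7 abundant mRNAs, 1 panel per gene, in ND-fed WT (ND), HFD-fed WT (HFD) and HFD-fed Acod1-/- (KO) libraries of eWAT (left of the grey line) and iWAT (right), with a line at each group mean. On HFD mt-Nd1 and mt-Nd2 stand above and mt-Co1 below the ND libraries of both depots, and mt-Nd5 stands below them in eWAT, with 12.5% ± 0.519 (SD, n = 4) on ND and 8.49% ± 1.12 (SD, n = 5) on HFD.

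The level of each gene relative to all genes was then tested with edgeR's quasi-likelihood test in each depot, where 19 members in eWAT and 21 in iWAT reached a mean of 1 CPM, all mRNAs and rRNAs among them. A gene was called at a Benjamini-Hochberg adjusted p under 0.1 over all genes tested. For diet in eWAT 3 of the 19 were called, all lower, beside 51.8% of all genes called in either direction and 26.9% called lower. In normalized CPM, mt-Nd5 was at 5354, 7315, 11127 and 9344 on ND and at 2906, 3393, 6629.9, 4094 and 7367 on HFD. Its groups overlapped, and the log2 fold change was -0.76 ± 0.35 (SE; edgeR adjusted p = 0.0936).

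The complex I mRNA mt-Nd4l was at 2.61, 4.06, 6.07 and 4.99 CPM on ND and at 1.67, 1.95, 3.03, 2.51 and 3.95 CPM on HFD, a log2 fold change of -0.75 ± 0.34 (edgeR adjusted p = 0.0866). Its 3 lowest values were on HFD. The proline tRNA mt-Tp was at 7.71, 13.2, 17.8 and 12.7 CPM on ND and at 2.10, 4.32, 6.42, 7.03 and 12.2 CPM on HFD, a log2 fold change of -1.0 ± 0.47 (edgeR adjusted p = 0.0965). All 3 calls were close to the threshold: mt-Nd5 lost it in 6 and mt-Nd4l and mt-Tp in 7 of the 9 fits that left out 1 library. Adding the series to the model left none of the 19 called, with edgeR adjusted p of 0.322 for mt-Nd5, 0.312 for mt-Nd4l and 0.404 for mt-Tp, beside 34.4% of all genes. With DESeq2 size factors, or with the mitochondrial genes kept out of the normalization, mt-Rnr1 was called higher (0.54 and 0.55) and mt-Tp was not called, so that the 3 calls were 1 higher and 2 lower.

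Among the other complex I mRNAs the eWAT log2 fold change with HFD was 0.24 ± 0.36 for mt-Nd1, 0.24 ± 0.38 for mt-Nd2, 0.39 ± 0.42 for mt-Nd3, -0.18 ± 0.37 for mt-Nd4 and -0.45 ± 0.43 for mt-Nd6. It was -0.34 ± 0.39 for mt-Cytb, -0.38 ± 0.32 for mt-Co1, 0.13 ± 0.36 for mt-Co2 and 0.08 ± 0.34 for mt-Co3. The ATP synthase mRNAs had -0.23 ± 0.37 (mt-Atp6) and -0.53 ± 0.41 (mt-Atp8). None of these passed the test, and the median over the 13 mRNAs was -0.23 against -0.04 over all genes tested.

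The rRNAs, mt-Rnr1 of the small and mt-Rnr2 of the large ribosomal subunit, are what was left of them in libraries made from mRNA. In eWAT mt-Rnr1 was at 650.4, 425, 759 and 687 CPM on ND and at 723, 546, 1046, 1309.7 and 915 CPM on HFD, a log2 fold change of 0.53 ± 0.25 (edgeR adjusted p = 0.108). For mt-Rnr2 it was 0.57 ± 0.29 (edgeR adjusted p = 0.122). As a part of mitochondrial counts the rRNAs made up 4.93%, 2.68%, 2.74% and 2.58% on ND and 5.63%, 4.82%, 4.79%, 7.11% and 4.06% on HFD (exact permutation p = 0.0556, adjusted p = 0.464). Replicate 1 of the ND-fed group, at 4.93%, fell among the HFD libraries.

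For diet in iWAT 1 of the 21 members tested was called, lower on HFD, beside 50.1% of all genes called and 24.2% called lower. It was mt-Co3, a complex IV subunit, at 121.9, 45.1 and 54.5 CPM on ND and at 25.6, 33.4, 33.1, 41.2 and 27.1 CPM on HFD, without overlap. Its log2 fold change was -1.20 ± 0.32 (edgeR adjusted p = 0.0114). Replicate 1 of the ND group carried much of it, and without that library the log2 fold change was -0.64 ± 0.26 (edgeR adjusted p = 0.0760). That library had 9309 CPM of skeletal muscle markers, against 3.79 and 304 CPM in the others of its group, and their part in the result was not tested. Its total share of mitochondrial reads, 6.83%, was the lowest of the group. With it left out 6 of 21 members were called, all lower, beside 44.3% of all genes called and 21.2% called lower. This gene is also one of those whose reads are shared with the copies on chromosome 1, and Gm28437, its copy, had a log2 fold change of -0.68 ± 0.26 (edgeR adjusted p = 0.0586).

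The remaining iWAT log2 fold changes with HFD were -0.42 ± 0.22 for mt-Co1, -0.46 ± 0.26 for mt-Cytb, -0.52 ± 0.27 for mt-Atp6, -0.55 ± 0.32 for mt-Atp8 and -0.30 ± 0.31 for mt-Co2. In complex I they were 0.10 ± 0.25 (mt-Nd1), 0.12 ± 0.26 (mt-Nd2), -0.19 ± 0.31 (mt-Nd3), -0.27 ± 0.26 (mt-Nd4), -0.43 ± 0.25 (mt-Nd4l), -0.29 ± 0.18 (mt-Nd5) and -0.16 ± 0.28 (mt-Nd6). None of these was called. The median over the 13 mRNAs was -0.30 against 0.00 over all genes tested. The rRNA mt-Rnr2 had -0.20 ± 0.25. Lymph node markers (425 to 783 CPM) and brown adipocyte markers (232 to 1422 CPM) were also higher in the ND-fed iWAT libraries than in all HFD-fed WT libraries of the depot, and their part was not tested.

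The diet response of mt-Rnr1 differed between depots. In iWAT it was at 1165, 1308 and 2449 CPM on ND and at 1295, 1284, 915, 1225 and 789.7 CPM on HFD, a log2 fold change of -0.57 ± 0.28 (edgeR adjusted p = 0.125), against 0.53 in eWAT. In the fit of all 25 libraries the difference between the depots (eWAT minus iWAT) was 1.12 ± 0.40 on the log2 scale (edgeR adjusted p = 0.0461). It was also called for mt-Co3, with 1.32 ± 0.51 (edgeR adjusted p = 0.0662), so that 2 of 20 members tested were called, both higher, beside 29.0% of all genes called and 14.0% called higher. The call of mt-Rnr1 was lost without replicate 3 of iWAT ND (0.74 ± 0.39, edgeR adjusted p = 0.209), and that of mt-Co3 without replicate 1 of iWAT ND (0.74 ± 0.49, edgeR adjusted p = 0.303) or without replicate 1 or 2 of eWAT ND (edgeR adjusted p = 0.129 and 0.114).

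For genotype in eWAT the 13 mRNAs all had a higher fitted level in Acod1-/- than in WT mice on HFD, and none of them was called. Of the 19 members tested 1 was called, mt-Tp, beside 19.9% of all genes called and 9.13% called higher. It was at 2.10, 4.32, 6.42, 7.03 and 12.2 CPM in WT and at 11.8, 32.9, 11.5, 13.1 and 7.98 CPM in Acod1-/- mice, a log2 fold change of 1.27 ± 0.45 (edgeR adjusted p = 0.0794). Replicate 2 was highest, and without it the value was 0.79 ± 0.39 (edgeR adjusted p = 0.210). The call was lost in 8 of the 10 fits that left out 1 library, over which the log2 fold change ran from 0.79 to 1.64.

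In complex I the eWAT log2 fold changes between genotypes were 0.43 ± 0.34 (mt-Nd1), 0.45 ± 0.35 (mt-Nd2), 0.45 ± 0.39 (mt-Nd3), 0.72 ± 0.35 (mt-Nd4), 0.79 ± 0.32 (mt-Nd4l), 0.72 ± 0.33 (mt-Nd5) and 0.97 ± 0.41 (mt-Nd6). In complex IV they were 0.54 ± 0.30 (mt-Co1), 0.61 ± 0.34 (mt-Co2) and 0.80 ± 0.32 (mt-Co3), and in ATP synthase 0.90 ± 0.35 (mt-Atp6) and 0.85 ± 0.39 (mt-Atp8). The rRNAs had 0.31 ± 0.24 (mt-Rnr1) and 0.35 ± 0.27 (mt-Rnr2). The complex III mRNA mt-Cytb was at 5861, 6088, 12981, 9886 and 13125 CPM in WT and at 16773, 35071, 14686, 13538 and 8617 CPM in Acod1-/- mice, with 0.89 ± 0.37 (edgeR adjusted p = 0.133). Of the 5 Acod1-/- libraries, 4 were above all WT libraries and replicate 5 was among them. The median over the 13 mRNAs was 0.72 against 0.04 over all genes tested.

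Which libraries entered decided these calls. Without replicate 2 of the Acod1-/- group no member was called, beside 16.7% of all genes, and the log2 fold changes were 0.03 ± 0.28 for mt-Nd1, 0.06 ± 0.30 for mt-Nd2, 0.26 ± 0.27 for mt-Co1, 0.48 ± 0.32 for mt-Cytb, 0.43 ± 0.32 for mt-Nd6 and 0.53 ± 0.31 for mt-Atp6. The median over the 13 mRNAs was then 0.40. Without replicate 5 of the same group 10 of 19 were called, all higher, beside 28.3% of all genes called and 13.5% called higher. With the libraries of series 1 alone, which leaves out replicate 5 of both groups but keeps replicate 2, 9 of 21 were called, all higher, beside 25.9% of all genes called and 11.1% called higher, with 1.17 ± 0.38 for mt-Cytb (edgeR adjusted p = 0.0604) and 1.29 ± 0.39 for mt-Nd6 (edgeR adjusted p = 0.0509). Macrophage markers moved with this comparison, at 249 to 542 CPM in 4 of the 5 Acod1-/- libraries and 1144 CPM in replicate 5 against 1032 to 3889 CPM in WT libraries, and their part was not tested.

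**Figure D4:**
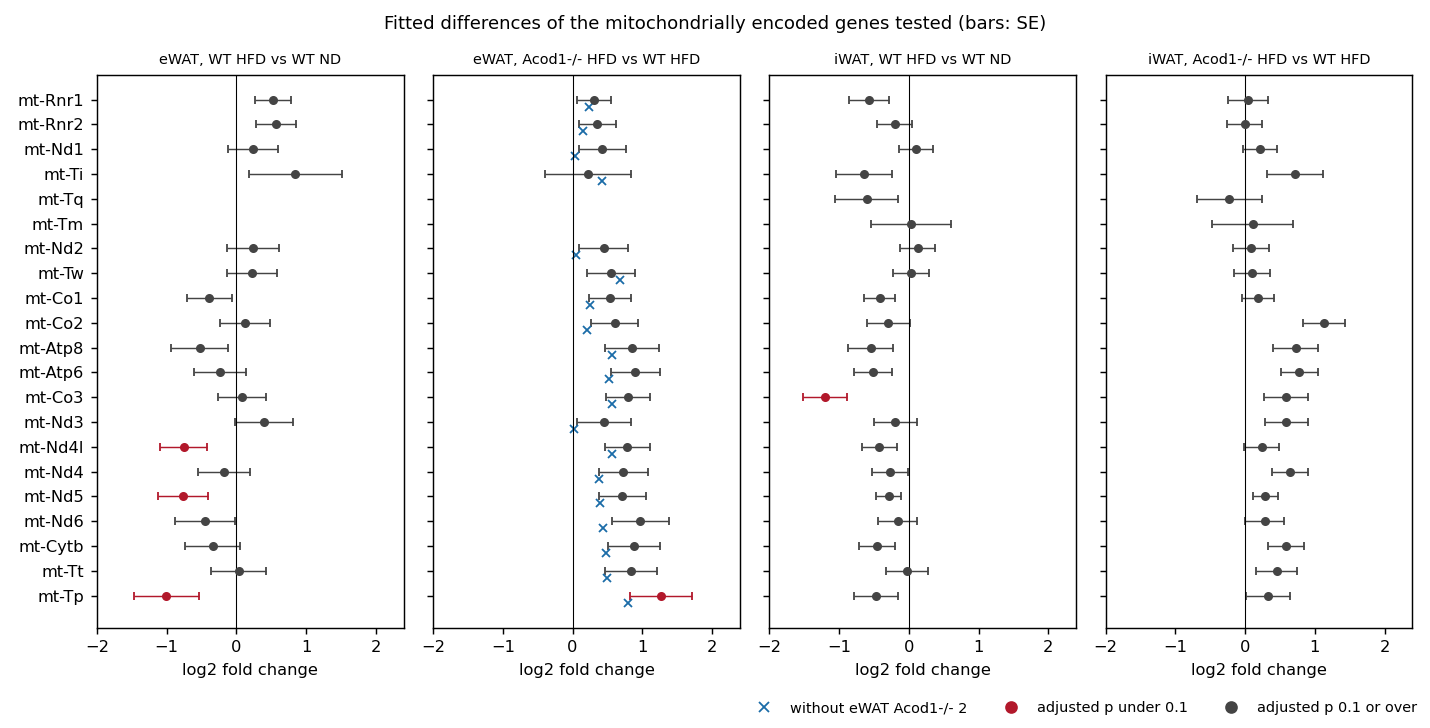
Log2 fold change (x axis) with its SE of each mitochondrial gene tested, in chromosome order, for diet and genotype in each depot. Red points were called at an adjusted p under 0.1, and blue crosses give the eWAT genotype value without replicate 2 of the Acod1-/- group. All points of the eWAT genotype panel are above 0, and the crosses of mt-Nd1, mt-Nd2 and mt-Nd3 fall to 0.03, 0.06 and 0.03.

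For genotype in iWAT no member of 21 was called by edgeR, and no gene of all was (0.0%). DESeq2's Wald test called 3 members, mt-Co2, mt-Atp6 and mt-Nd4, beside 7.24% of all genes. All 13 mRNAs had a positive log2 fold change, from 0.08 ± 0.26 for mt-Nd2 to 1.13 ± 0.31 for mt-Co2, with a median of 0.58 against -0.01 over all genes tested. In CPM mt-Co2 was at 33.6, 44.05, 43.4, 45.4 and 34.3 in WT and at 132.6, 88.5 and 42.9 in Acod1-/- mice (edgeR adjusted p = 0.147), so that replicates 1 and 2 were above all WT libraries and replicate 3 was within them.

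The log2 fold changes of the other iWAT mRNAs between genotypes were 0.21 ± 0.24 (mt-Nd1), 0.59 ± 0.31 (mt-Nd3), 0.65 ± 0.26 (mt-Nd4), 0.24 ± 0.25 (mt-Nd4l), 0.29 ± 0.18 (mt-Nd5) and 0.28 ± 0.28 (mt-Nd6) in complex I. They were 0.59 ± 0.26 for mt-Cytb, 0.18 ± 0.22 for mt-Co1, 0.58 ± 0.32 for mt-Co3, 0.78 ± 0.27 for mt-Atp6 and 0.72 ± 0.32 for mt-Atp8. For mt-Rnr1 and mt-Rnr2 they were 0.04 ± 0.29 and -0.01 ± 0.25. Without replicate 3, the series 2 library with a label of 18 weeks, 6 members were called higher, beside 17.9% of all genes called and 9.43% called higher. With series 1 alone, which leaves out that library and 1 WT library, 6 were called higher, beside 14.9% called and 7.11% called higher. The difference between depots in the genotype response was called for none of the 20 members tested by edgeR, beside 0.00665% of all genes, and no member had an unadjusted p under 0.05.

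The share of mt-Nd6 in mitochondrial mRNA counts sets the light-strand against the heavy-strand mRNAs. It averaged 0.485%, 0.426% and 0.501% in ND-fed WT, HFD-fed WT and Acod1-/- eWAT and 0.450%, 0.517% and 0.506% in iWAT. The SDs were 0.0418 to 0.114 points, and the lowest p of the 4 exact permutation tests was 0.214. Whether strand was used in counting is not stated, so reads of mt-Nd6 and of heavy-strand RNA opposite it cannot be told apart.

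Other settings moved the number of members called in the comparisons within a depot, and so did the share of all genes called in some of them. DESeq2 called 5 members for eWAT diet, beside 52.7% of all genes, 6 for eWAT genotype, beside 24.7%, and 4 for iWAT diet, beside 51.3%. Without a filter on low counts no member was called in eWAT, beside 22.1% of all genes for diet and 7.31% for genotype. With only the compared groups fitted, none was called for eWAT genotype, beside 15.7%, and 3 for iWAT diet, beside 57.6%. The series term gave 6 for iWAT diet, beside 38.8%, and the replicate number as a block gave 1 for eWAT diet, beside 46.2%.

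The tRNAs are short and mostly lost from such libraries. Together they had 454 to 2548 counts per library, 0.0275% to 0.0574% of mitochondrial counts. Of the 22, 7 were counted in all 25 libraries (mt-Tp, mt-Tt, mt-Tw, mt-Ti, mt-Tq, mt-Tm and mt-Ts1), 12 in some of them with at most 20 counts, and 3 (mt-Tr, mt-Th and mt-Ts2) had a count of 0 everywhere, which allows up to 3 counts per library. The 3 with the most counts are shown for their position: mt-Tp (M:15356-15422, minus strand) and mt-Tt (M:15289-15355, plus strand) follow mt-Cytb at the end of the annotated genes, and mt-Tw (M:4950-5016, plus strand) follows mt-Nd2. They are given 5′ to 3′ as DNA in GRCm38, with the anticodon in capitals.
mt-Tp: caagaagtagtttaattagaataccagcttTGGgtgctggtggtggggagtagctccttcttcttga
mt-Tt: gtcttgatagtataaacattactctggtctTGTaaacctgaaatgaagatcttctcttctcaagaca
mt-Tw: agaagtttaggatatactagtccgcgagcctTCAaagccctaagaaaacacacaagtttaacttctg
Their median counts were 494, 300 and 224. Reads there may belong to uncut precursors as well as to tRNAs, and this was not tested.

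In eWAT mt-Tt, the threonine tRNA, had log2 fold changes of 0.04 ± 0.40 with HFD and 0.84 ± 0.37 between genotypes, mt-Tw, for tryptophan, 0.23 ± 0.36 and 0.55 ± 0.34, and mt-Ti, for isoleucine, 0.85 ± 0.67 and 0.22 ± 0.62. In iWAT the values were -0.03 ± 0.30 and 0.45 ± 0.29 for mt-Tt, 0.03 ± 0.26 and 0.10 ± 0.26 for mt-Tw, -0.64 ± 0.40 and 0.71 ± 0.40 for mt-Ti and -0.47 ± 0.31 and 0.32 ± 0.32 for mt-Tp. The glutamine tRNA mt-Tq had -0.61 ± 0.45 and -0.23 ± 0.47 and the methionine tRNA mt-Tm 0.04 ± 0.57 and 0.11 ± 0.57. None of these was called.

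Nuclear genes that act on mitochondrial DNA and RNA were called in both directions with diet, 17 of 34 in eWAT beside 51.8% of all genes and 19 of 34 in iWAT beside 50.1%. They serve mtDNA upkeep, transcription and RNA processing, and 4 rose and 13 fell with HFD in eWAT, beside 24.8% of all genes called higher and 26.9% called lower. In iWAT 3 rose and 16 fell, beside 25.9% and 24.2% of all genes. Their median log2 fold changes were -0.20 and -0.29, against -0.04 and 0.00 over all genes tested. In eWAT Lrpprc, which stabilises mitochondrial mRNAs, fell by 0.54 ± 0.10 and Polg, the mtDNA polymerase, fell by 0.48 ± 0.10 on the log2 scale (edgeR adjusted p = 0.00129 and 0.00270), and the helicase Twnk fell by 0.72 ± 0.16 (edgeR adjusted p = 0.00318). In iWAT Polg fell by 0.59 ± 0.09, Mterf3 by 0.81 ± 0.18 and Trmt10c, a subunit of the RNase that cuts tRNA ends, by 0.49 ± 0.11 (edgeR adjusted p = 0.000717, 0.00421 and 0.00617). In both depots Rexo2, a mitochondrial exonuclease for short RNA, rose, by 0.73 ± 0.18 in eWAT and 1.10 ± 0.12 in iWAT, and so did Slirp, the partner of Lrpprc, by 0.67 ± 0.18 and 0.46 ± 0.15. The third riser by the rule was Fastkd5 in eWAT (0.61 ± 0.21) and Mtpap in iWAT (0.29 ± 0.11). These diet results, and those of the lists that follow, come from the main fit, in which diet nearly coincides with series. The listed genes were not looked at with the series as a term. The part of the lymph node and skeletal muscle markers of the ND-fed iWAT libraries was not tested.

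Between genotypes 6 of these 34 were higher in eWAT of Acod1-/- mice and none lower, with a median of 0.25, beside 9.13% of all genes called higher and 19.9% called in either direction. They include Tfb2m, a transcription factor of mtDNA (0.47 ± 0.11, edgeR adjusted p = 0.0203), Polg (0.35 ± 0.10) and Lrpprc (0.33 ± 0.09). In iWAT none was called. The diet response differed between depots for 3 of them, Ptcd2, Tfam and Tbrg4, with 0.68 ± 0.17, 0.44 ± 0.14 and 0.39 ± 0.16 (eWAT minus iWAT), beside 29.0% of all genes called and 14.0% called higher. Tfam packages mtDNA and starts its transcription.

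Of 10 regulators of mitochondrial biogenesis 1 rose and 2 fell with HFD in eWAT, beside 51.8% of all genes called, and 6 fell in iWAT, beside 50.1% called and 24.2% called lower. In eWAT Esrra rose by 0.53 ± 0.22, while Ppargc1a, the coactivator that drives mitochondrial biogenesis, fell by 0.64 ± 0.26 and Gabpb1 by 0.45 ± 0.17. In iWAT the 3 named by the rule were Myc (fell by 1.40 ± 0.29), Nrf1 (fell by 0.75 ± 0.17) and Gabpb1 (fell by 0.64 ± 0.16). The diet response differed between depots for Nrf1, with 0.61 ± 0.22, and Ppargc1b, with 1.55 ± 0.59, beside 14.0% of all genes called higher. None of the 10 was called between genotypes in either depot.

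The nuclear subunits of complexes I, III and IV and of ATP synthase, 70 in all, are the partners of the mitochondrial mRNAs. With HFD in eWAT 21 rose and 6 fell, with a median of 0.31, beside 24.8% of all genes called higher and 26.9% called lower. In iWAT 6 rose and 3 fell, with a median of 0.05, beside 25.9% and 24.2% of all genes. In both depots Ndufa11 rose (0.82 ± 0.25 and 0.55 ± 0.18) and Ndufs1 (fell by 0.79 ± 0.14 and 0.68 ± 0.19) and Uqcrc2 (fell by 0.54 ± 0.15 and 0.66 ± 0.18) fell. Of the others, those given here rose (Atp5g1 by 0.61 ± 0.17 and Atp5e by 0.94 ± 0.26 in eWAT, Ndufb4 by 0.71 ± 0.20 and Ndufa2 by 0.53 ± 0.17 in iWAT) or fell (Ndufv1 by 0.44 ± 0.15 in eWAT). In eWAT of Acod1-/- mice 6 of 70 were higher than in WT mice and none lower, with a median of 0.28, beside 9.13% of all genes called higher. Ndufs1, Uqcrc2 and Ndufv1 had 0.50 ± 0.13, 0.48 ± 0.15 and 0.45 ± 0.15. In iWAT none was called between genotypes, with a median of 0.18.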

How the data were processed

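Directional mRNA libraries were trimmed, filtered for contaminants and aligned with STAR to GRCm38 by the authors, as their methods state. The deposited files give counts of uniquely aligned reads per gene, whole numbers with no normalization, the cDNA length (a column of another kind, deposited per gene), and FPKM, which the authors derived from counts and length. The counting program and its strand setting are not given in the sources used here. Symbols, coordinates and sequences came from GENCODE vM21 (GRCm38). The members and lists were chosen with earlier results of these data known. Every mRNA, rRNA and tested tRNA is named, and of each other list at most 3 called genes per direction with the smallest adjusted p. The result of 1 such gene is not reported here. Genes with a mean of 1 CPM in a depot were fitted with edgeR 4.0.16 (TMM, quasi-likelihood, 3 groups) in R 4.3.3, and interactions in all 25 libraries. DESeq2 1.42.0 was an alternative. CPM of members are TMM-normalized and those of marker lists are not. Shares were compared by two-sided exact permutation, whose smallest reachable p is 0.00794 to 0.0286. Tests were checked on simulated data. No label says which libraries of the depots come from 1 mouse. p-values measure the spread between libraries.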

Additional observations from a re-analysis of the deposited data

Results flagged for a closer look

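Of 90 sets of 4 or 5 libraries examined for 1 library apart from the rest, 9 had one, at limits that about 1 in 20 independent sets would pass. The sets are measures of the same libraries and not independent, so their number cannot be set against that rate. Replicate 2 of the eWAT Acod1-/- group was apart for 6 genes. In normalized CPM it had 20577 for mt-Nd1 (others 6239 to 9026), 18813 for mt-Nd2 (5543 to 8387), 112 for mt-Co2 (28.3 to 50.5), 12.7 for mt-Nd3 (3.04 to 5.74), 1001 for mt-Nd6 (183 to 417) and 32.9 for mt-Tp (7.98 to 13.1). Its total share of mitochondrial reads, 13.2%, was not apart by the same measure (gap over range 0.681 against a limit of 0.710). Replicate 4 of that group had 4.20 CPM of mt-Ti against 0.610 to 1.24 in the others, replicate 5 of eWAT WT HFD had 8.77 CPM of mt-Tt against 3.22 to 4.69, and replicate 1 of eWAT WT ND had 4.93% of mitochondrial counts on rRNA against 2.58% to 2.74%. The diet response differed between depots by a tested interaction for mt-Rnr1, with 1.12 on the log2 scale, and for mt-Co3, with 1.32.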

How the results depend on the processing

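No alternative turned a test of a share into a call. The number of members called was 3 (eWAT diet), 1 (eWAT genotype), 1 (iWAT diet), 0 (iWAT genotype), 2 (diet by depot) and 0 (genotype by depot). With DESeq2's Wald test it was 5, 6, 4 and 3 in the 4 comparisons within a depot. In eWAT it was 0 and 0 without a filter on low counts and 0 and 0 at an adjusted p under 0.05, at which 42.2% and 11.5% of all genes were called. Fitted on the compared groups alone it was 0 for eWAT genotype and 3 for iWAT diet. With the series as a term it was 0 for eWAT diet and 6 for iWAT diet. With series 1 alone, chosen after the data were seen, it was 9 for eWAT and 6 for iWAT genotype. With 1 library left out it ranged from 0 to 3 (eWAT diet), 0 to 10 (eWAT genotype), 1 to 6 (iWAT diet), 0 to 6 (iWAT genotype), 1 to 4 (diet by depot) and 0 to 0 (genotype by depot), while the share of all genes called ranged from 44.5% to 50.5%, 11.4% to 28.3%, 37.15% to 47.99%, 0.0% to 17.9%, 19.8% to 30.5% and 0.006635% to 2.59% in the same order. The cause was not tested. With the replicate number as a block it was 1 for eWAT diet and otherwise within 1.5 times. Same-numbered libraries of the groups compared within a depot did not all deviate together (correlations -0.179 to 0.355). The correlation was over 0.1 in 3 of 4 pairs for eWAT diet and 4 of 5 for eWAT genotype. It was over 0.1 in 2 of 3 pairs for iWAT diet and 1 of 3 for iWAT genotype. The main fits did not take the numbers to pair those groups, and the block is the alternative that does. Whether same-numbered libraries of eWAT and iWAT come from the same mouse was not checked, and the main fits and tests treated the depots as unpaired.

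Leaving out 1 library turned the sign of 3 differences in share that were not called: eWAT against iWAT in Acod1-/- mice (-1.46 to 0.568 points of the mitochondrial share), rRNA in iWAT with diet (-0.539 to 0.0613 points) and mt-Nd6 in iWAT between genotypes (-0.0320 to 0.0229 points). With 1 library left out mt-Nd6 in iWAT with diet ranged from -0.41 to 0.41 on the log2 scale, and without replicate 3 of iWAT ND it was called higher on HFD at 0.41 (edgeR adjusted p = 0.0660). Over 120 pairs of a member and a comparison and 2099 alternative fits of them, 44 lost a call, 70 gained one and 1 reversed, and 104 changed sign without a call. Over all genes, no gene was called for iWAT genotype, but 1072 were by DESeq2, 77 without a filter, 2157 in series 1 alone, 5 under either other normalization and 4 with the series term, while eWAT diet went from 7730 to 5139 with that term. With 3 to 5 libraries a group and a mean share that varies by 0.785 to 3.06 points (SD) within groups, small differences in share were not detectable.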
